A study of Mus musculus with 18 samples.

Results

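The response of the mouse heart to phenylephrine (PE), a drug that activates alpha-1 adrenergic receptors, was measured in the control hearts of a study on deletion of serum response factor (SRF). The sample titles selected 6 of the 18 arrays of the series: 3 control hearts at day 25 with PE and 3 control hearts at day 25 without it. The arrays read RNA of cardiac ventricles on Affymetrix chips, each titled as a heart and a biological replicate. Whether an array holds 1 animal or a pool is not stated in the labels, so each SD, n and p-value measures the spread between these RNA samples, called hearts here. All mice were males of 10 weeks, with the strain labelled CR7BL6, and all received 0.7 mg of tamoxifen intraperitoneally on 3 days. The controls were SRF-flex2neo littermates of the SRFHKO mutants, so the untreated controls also carry the tamoxifen exposure. PE was given at 80 mg/kg/day through Alzet osmotic minipumps from day 10 to day 25, counted from the first tamoxifen injection. For the untreated controls no pump is described in the labels, so PE and the implanted pump cannot be told apart. Of the other 12 arrays, the 3 SRFHKO hearts with PE and the 3 without at day 25 give a second PE comparison that shares no array with the first. No label names the Cre driver of the SRFHKO mice. The 2 control and 4 SRFHKO hearts of day 8 serve as further hearts without PE and enter the spread pooled over the 18 arrays. As a check of the labels, Srf read 7.66, 7.37 and 7.42 in the untreated controls of day 25 and 7.48, 7.16 and 7.63 in the untreated hearts labelled SRFHKO, and the groups overlapped. Levels are log2 of the scaled intensity plus a pseudocount of 2 throughout. Whether the Srf probes fall inside the deleted stretch is not known here, so this reading does not test the genotype labels, and SRFHKO below means hearts with that label.

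Alpha-1 adrenergic receptors couple through Gq proteins to phospholipase C, calcium release and protein kinase C, and sustained activation enlarges cardiomyocytes. Enlarging ventricles are known to re-express fetal genes, among them the slow myosin heavy chain Myh7, skeletal alpha-actin Acta1 and the natriuretic peptides Nppa and Nppb. SRF is a transcription factor that binds the promoters of many muscle and immediate early genes.

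Signal before scaling, as the 2% trimmed mean of each array, was 57.3 ± 11.0 (SD, n = 3) without PE and 65.1 ± 11.6 with PE, and the ranges overlapped. In both groups replicate 2 was the brightest and replicate 3 the dimmest, and the PE array was the brighter one at each replicate number. The day 8 arrays were all brighter, at 110 to 148, than any array of day 25, at 46.6 to 85.4. Ratios of the 3' to the 5' probe sets lay between 0.846 and 0.945 for Gapdh and between 1.75 and 2.03 for Actb. Both ratios were lower with PE at each replicate number. The share of genes below the filter limit for dim signal was 3.45%, 3.43% and 3.39% without PE. With PE it was 4.15%, 3.89% and 4.02%, so these ranges did not overlap. Whether this bears on the genes lower with PE was not tested. Correlations between the 6 arrays lay between 0.941 and 0.963, and no pair held identical values. The ventricular markers Myl2, Myl3, Myh6, Tnnt2 and Tnni3 read 12.90 or more on all 6 arrays. The atrial markers Myl7, Myl4 and Sln were detected as well, at 9.23 to 11.97, with overlapping groups.

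Few genes passed the threshold between control hearts with and without PE. Of 12616 genes tested with limma, 4 passed an adjusted p of 0.05 (0.0317%) and all 4 were higher with PE: Myh7, Hsp90aa1, Enah and 1700025G04Rik. No gene passed as lower. At an unadjusted p under 0.05 there were 1329 genes (10.5%), 559 of them higher (4.43%) and 770 lower (6.1%). These shares depend on the scaling: with arrays scaled to their median the median difference of all genes moved from -0.03 to 0.12, and 1365 were higher and 236 lower. The next genes stood at an adjusted p of 0.0676, and 12 genes in all were at or under 0.10, 10 higher and 2 lower. With 3 hearts per group an exact permutation test of a single gene cannot go below p = 0.1, so the calls rest on the spread pooled over all 18 arrays. Myh7 passed whichever of the 6 hearts was left out. Without control replicate 2, PE replicate 1 or PE replicate 3 it was the only call, and without control replicate 1 there were 7. The groups did not overlap for 745 genes on the higher side (5.91%) and 1102 on the lower side (8.73%).

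Myh7, the slow beta-myosin heavy chain of the fetal ventricle, rose the most of the 4. It read 9.14, 9.41 and 9.82 in untreated controls and 13.01, 12.55 and 12.74 with PE, and the groups were far apart. The means were 12.77 ± 0.23 against 9.45 ± 0.34 (SD, n = 3 each). The difference was 3.31 ± 0.38 (SE) on the log2 scale, a 9.93-fold rise, with an adjusted p of 0.000758 and 2.27e-05 to 0.0236 over 17 alternatives. Outside this comparison Myh7 was high as well: 11.89 and 11.94 in the controls of day 8 and 12.40, 12.66 and 12.30 in untreated SRFHKO hearts of day 25. The 3 untreated controls of day 25 were below all 15 other arrays, so an effect of PE and a low reading in those 3 hearts cannot be told apart.

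**Figure D1:**
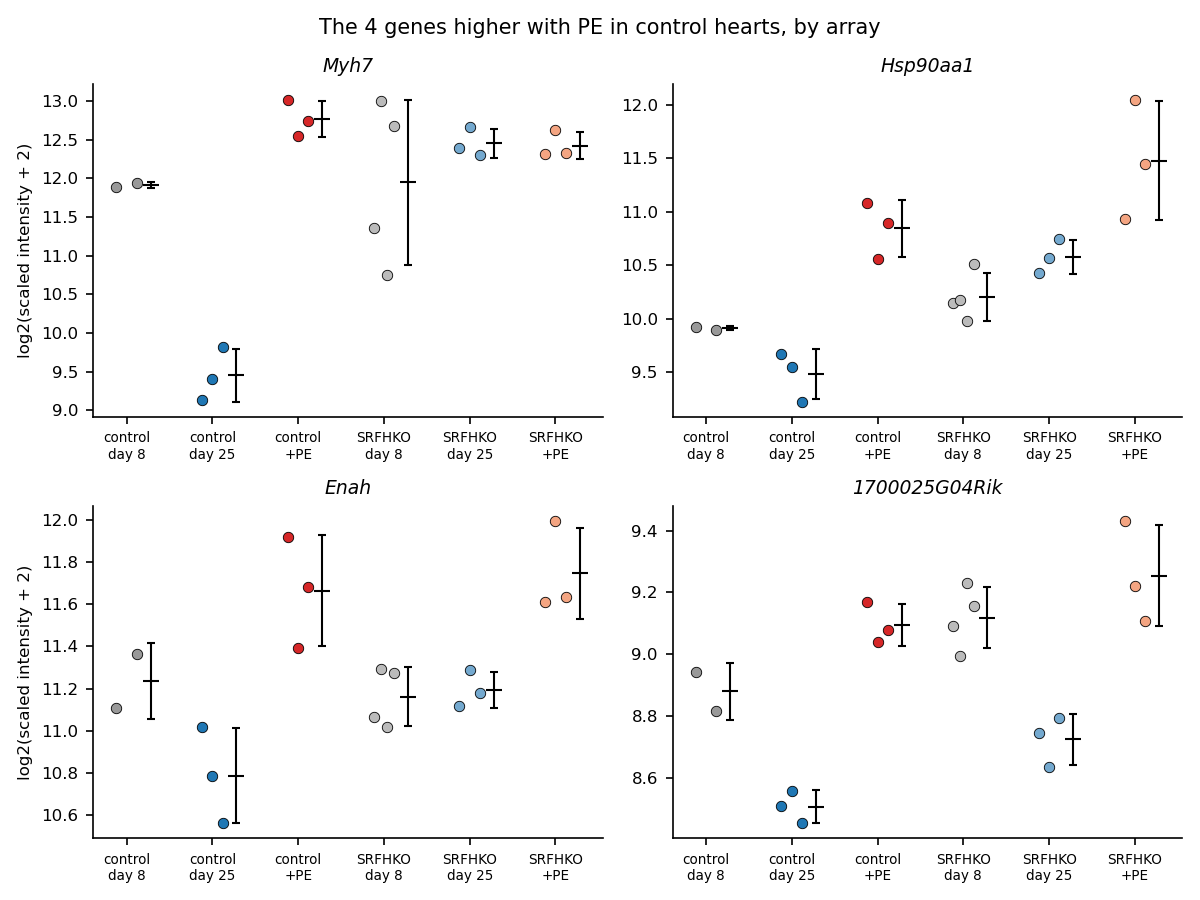
Log2(scaled intensity + 2) of the 4 genes past the threshold on each array (points) in the 6 groups, with mean and SD (bars). In all 4 panels the 3 untreated controls of day 25 lie below the other 15 arrays, Myh7 at 9.14 to 9.82.

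Hsp90aa1, the stress-inducible cytosolic HSP90 chaperone, read 9.68, 9.55 and 9.23 without PE and 11.09, 10.56 and 10.89 with it. The groups did not overlap. The difference was 1.36 ± 0.21 (SE), 2.57-fold, with an adjusted p of 0.0201 and 0.0101 to 0.167 over the alternatives, of which 11 of 17 kept the call. The other 2 probe sets of Hsp90aa1 above the filter read differences of 1.61 and 1.44.

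Enah, an actin regulator of the Ena/VASP family, read 11.02, 10.79 and 10.56 without PE and 11.92, 11.39 and 11.68 with it. The groups did not overlap, and the difference was 0.88 ± 0.14 (SE), 1.83-fold, with an adjusted p of 0.0280 and 0.0113 to 0.192 over the alternatives. Of its other 5 probe sets, 3 read differences of 1.40, 0.77 and 0.97, while the remaining ones read -0.05 and -0.15. The call was kept in 8 of 17 alternatives.

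1700025G04Rik, a gene known only by its clone name, read 8.51, 8.56 and 8.45 without PE and 9.17, 9.04 and 9.08 with it. Its rise was 0.59 ± 0.10 (SE), with an adjusted p of 0.0459 and 0.0296 to 0.192 over the alternatives. The call was kept in 5 of 17 alternatives. Its other 2 probe sets read 0.58 and 0.48. In SRFHKO hearts the gene also rose with PE, by 0.53 with an adjusted p of 0.0260. The other 3 called genes did not pass there. Hsp90aa1 differed by 0.90 and Enah by 0.55, at limma adjusted p of 0.0708 and 0.105, and Myh7 by -0.03.

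The untreated controls of day 25 were below all 15 other arrays for all 4 called genes. That holds for 90 of the 12616 genes (0.713%), and they were above all 15 others for 133 (1.05%). The PE controls were above all 15 others for 26 genes (0.206%) and below for 35 (0.277%), and none of the 4 is among them. Of the 6 PE hearts, control and SRFHKO together, all were above the 12 hearts without PE for Enah. For Hsp90aa1 5 of them were, and for Myh7 1. At least 5 were for 0.69% of all genes.

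The 6 further genes with the smallest p among those higher with PE did not pass, at adjusted p from 0.0676 to 0.0879. Thbs4, thrombospondin-4 of the extracellular matrix, read 7.01, 6.95 and 6.59 without PE and 8.35, 7.65 and 7.99 with it, a difference of 1.14 ± 0.21 (SE). Nmrk2, the muscle nicotinamide riboside kinase that makes an NAD precursor, read 5.97, 5.45 and 6.09 without PE and 7.94, 7.82 and 7.57 with it, a difference of 1.94 ± 0.36 (SE). Synpo2l, an actin-binding protein of the Z-disc, differed by 0.97 ± 0.18 (SE). None of these groups overlapped. Col8a1, a network collagen, differed by 1.29 ± 0.25 (SE), while its other probe set above the filter read 0.30. Irf5, an interferon-pathway transcription factor, differed by 1.47 on a dim probe set with 1 control below the filter limit, and its other probe set read -0.55. Hspa1b is described with the heat shock genes.

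On the lower side the 10 smallest p went to genes at adjusted p of 0.0676 to 0.191, none past the threshold. Extl1, a glycosyltransferase of the exostosin family, read 6.96, 7.17 and 6.58 without PE and 5.95, 6.19 and 6.17 with it, a difference of -0.80 ± 0.15 (SE). Its PE values were below all 15 other arrays. Ces1d, a carboxylesterase that acts on stored lipid, differed by -1.12 ± 0.22 (SE). Ramp2, a co-receptor for adrenomedullin, differed by -0.57, and Coq8a, a kinase-like protein of coenzyme Q synthesis, by -0.50. The others were Anks3 at -1.78, Hrct1 at -1.01, Gpr137 at -0.77, the homeobox gene Hlx at -1.29, Adam12, a metalloprotease, with all 3 PE values below the filter limit, and the Ras regulator Rasal2 at -0.61. Other probe sets above the filter read smaller or opposite differences for Anks3 (-0.21), Coq8a (-0.23) and Rasal2 (-0.40 and 0.27). For Adam12 the untreated controls were at least 1.96-fold higher, against the filter limit.

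Of 22 hypertrophy and fetal cardiac genes listed, 19 were measured. Like the other gene lists here, this list was chosen with earlier results of these data known. Myh7 alone passed the test, and 8 were higher and 0 lower at an unadjusted p under 0.05, beside 4.43% and 6.1% of all genes. The median difference of the list was 0.02, beside -0.03 for all genes. Members ran from -0.72, for Mybphl, which is also on the atrial marker list, to 3.31 for Myh7. The part of atrial content in the list median was not tested. That median ran from -0.01 without control replicate 2 to 0.17 without PE replicate 2, and was 0.16 without control replicate 3. Nppb, B-type natriuretic peptide, read 11.49, 11.48 and 11.71 without PE and 12.29, 12.56 and 12.17 with it. The groups did not overlap, yet the difference of 0.78 ± 0.28 (SE) did not pass, with an adjusted p of 0.318. In SRFHKO hearts Nppb differed by 1.08 and did not pass either, at a limma adjusted p of 0.113. All 6 PE hearts, control and SRFHKO, were above all 12 hearts without PE for Nppb, counted after the values were seen. At least 5 were for 0.69% of all genes.

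Acta1, skeletal alpha-actin, read 10.32, 9.81 and 10.55 without PE and 11.05, 11.46 and 11.50 with it, a difference of 1.11 ± 0.36 (SE) with an adjusted p of 0.260. All 3 PE hearts were above all 3 untreated hearts. Rcan1, a calcineurin inhibitor that calcineurin signalling itself induces, read 8.98, 9.31 and 8.60 without PE and 10.01, 9.73 and 9.89 with it, a difference of 0.91 ± 0.27 (SE) with an adjusted p of 0.231. Its other probe set read 1.41. In SRFHKO hearts Rcan1 rose with PE by 1.63, with an adjusted p of 0.0167. Ankrd1, a stretch-induced ankyrin repeat protein, read 12.30, 12.22 and 12.87 without PE and 13.16, 12.72 and 13.15 with it, with overlapping groups and a difference of 0.55 ± 0.19 (SE).

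Nppa, atrial natriuretic peptide, read 13.00, 12.89 and 13.41 without PE and 13.28, 13.02 and 13.29 with it. The groups overlapped, with a difference of 0.10 ± 0.16 (SE) and an adjusted p of 0.866. Myh6, the adult alpha-myosin heavy chain, differed by -0.18 ± 0.10 (SE) and Atp2a2, the calcium pump SERCA2, by -0.12 ± 0.10 (SE). Cardiac actin Actc1 differed by -0.07, Kcnip2 by 0.35 (0.75 on its other probe set above the filter) and muscle creatine kinase Ckm by 0.01. Srf itself differed by 0.12, its partner Gata4 by 0.20 and Pdk4, a brake on pyruvate oxidation, by -0.95. On the probe sets used, all of these groups overlapped, at adjusted p from 0.531 to 0.992.

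**Figure D2:**
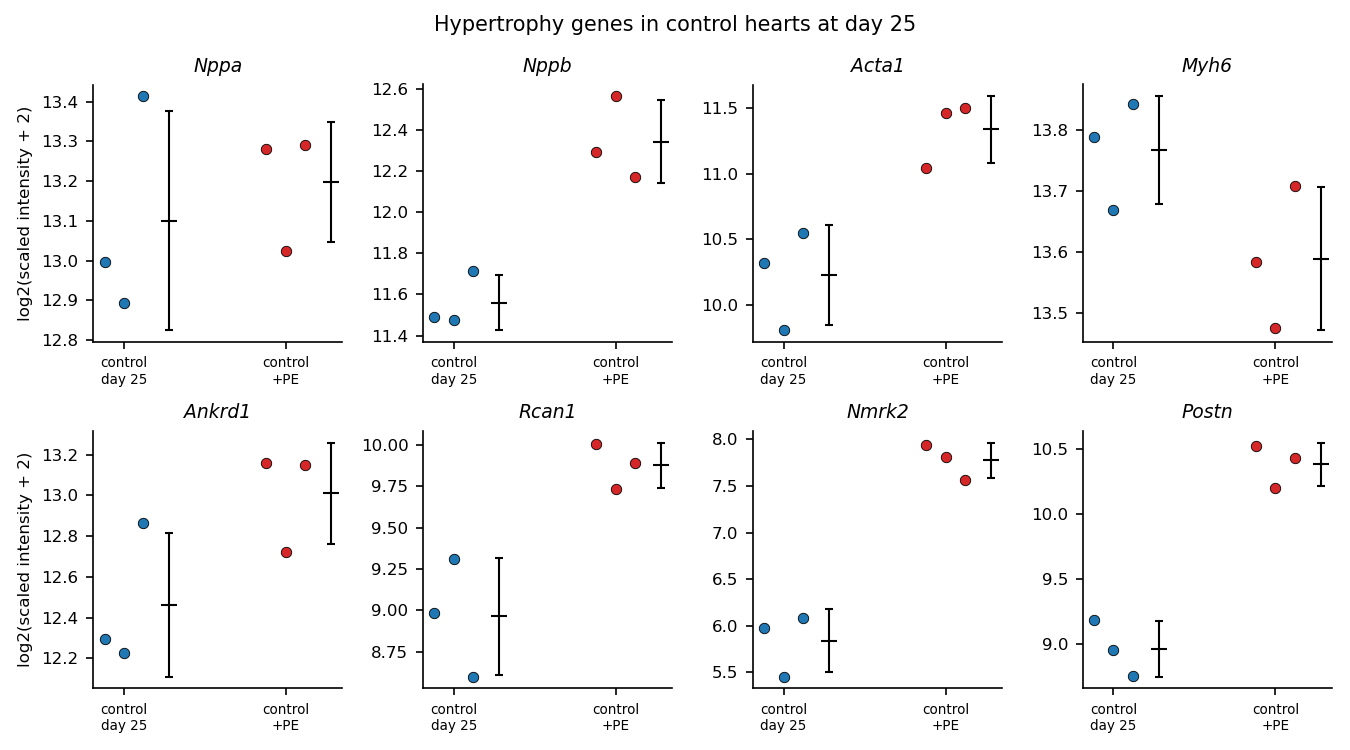
Log2(scaled intensity + 2) of 8 genes in the 3 untreated and the 3 PE-treated control hearts of day 25 (points), with mean and SD (bars). Nppb, Acta1, Rcan1, Nmrk2 and Postn do not overlap between the groups, while Nppa, Myh6 and Ankrd1 do.

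The Myh7 promoter is shown because Myh7 was the strongest of the calls. It is the 250 bases upstream of the outermost start in the RefSeq table (chr14:54994627-54994876, minus strand, GRCm38.p6), 5′ to 3′. Capitals mark the 1 match to the MCAT motif CATTCC, which TEAD factors bind, searched on both strands.
Myh7: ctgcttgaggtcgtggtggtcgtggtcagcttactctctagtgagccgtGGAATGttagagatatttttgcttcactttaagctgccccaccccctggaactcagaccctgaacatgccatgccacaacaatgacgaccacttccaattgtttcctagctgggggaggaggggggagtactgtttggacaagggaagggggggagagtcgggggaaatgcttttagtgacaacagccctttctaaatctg
The match is the reverse strand form, at positions -201 to -196 from the start, and the second start of Myh7 in the table holds none. Such a match was found in 14.7% of all 32851 promoters of 300 bases. A match describes letters and is not evidence of a site in use. Nppb and Acta1 each hold 1 match, and the promoters of Enah and 1700025G04Rik hold none.

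The heat shock genes, chaperones that refold damaged proteins, read above 0 with PE in 20 of 24 measured genes. Of these 24, from 26 listed, 1 passed the test, Hsp90aa1, and 12 were higher and 0 lower at an unadjusted p under 0.05, beside 4.43% and 6.1% of all genes. The median difference was 0.33, beside -0.03 for all genes. On 11 genes the groups did not overlap, all higher with PE, beside 5.91% of all genes. With 1 of the 6 hearts left out in turn, the number higher at that p ran from 7 to 11, with 7 without PE replicate 1. Hsp90aa1 did not pass without control replicate 2 or 3 or without PE replicate 1 or 3. The list was chosen with earlier results of these data known, so its counts beside all genes are descriptive and no independent test. The genes named next, beside Hspa1b, were chosen after their values were seen.

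Hspa1b, an inducible HSP70 chaperone, read 5.31, 5.50 and 5.89 in untreated controls and 11.75, 9.37 and 11.47 with PE. The difference was 5.29 ± 1.02 (SE), 39.2-fold, but it did not pass with all 18 arrays in the fit, at an adjusted p of 0.0676 and 0.00308 to 0.224 over the alternatives. In SRFHKO hearts it read 6.07, 6.67 and 6.95 without PE and 6.62, 12.85 and 12.09 with it. So 5 of the 6 PE hearts were above all 12 hearts without PE, which read up to 6.95, and SRFHKO PE replicate 1 was not. Hspa1a and Hspa1b are near-identical genes, so their probe sets may share signal; the 3 Hspa1b probe sets read differences of 5.29, 4.16 and 4.64.

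Hsph1, the HSP110 cochaperone, read 8.42, 7.89 and 7.55 without PE and 9.87, 8.69 and 10.02 with it, a difference of 1.57 ± 0.43 (SE) with an adjusted p of 0.203. Dnajb4, an HSP40 cochaperone, read 10.61, 10.38 and 10.59 without PE and 11.51, 11.14 and 11.34 with it, a difference of 0.80 ± 0.19 (SE) with an adjusted p of 0.191. Hspb1, the small heat shock protein HSP25, read 11.68, 11.43 and 11.75 without PE and 12.56, 11.83 and 12.46 with it, a difference of 0.67 ± 0.20 (SE). In all 3 genes the PE hearts were above the untreated controls, and PE replicate 2 was the lowest of them. Dnaja1 differed by 0.95 and Hspa4 by 0.45. At the low end Dnajb1 differed by 0.12, Cryab by 0.17 and the heat shock factor Hsf2 by -0.07.

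**Figure D3:**
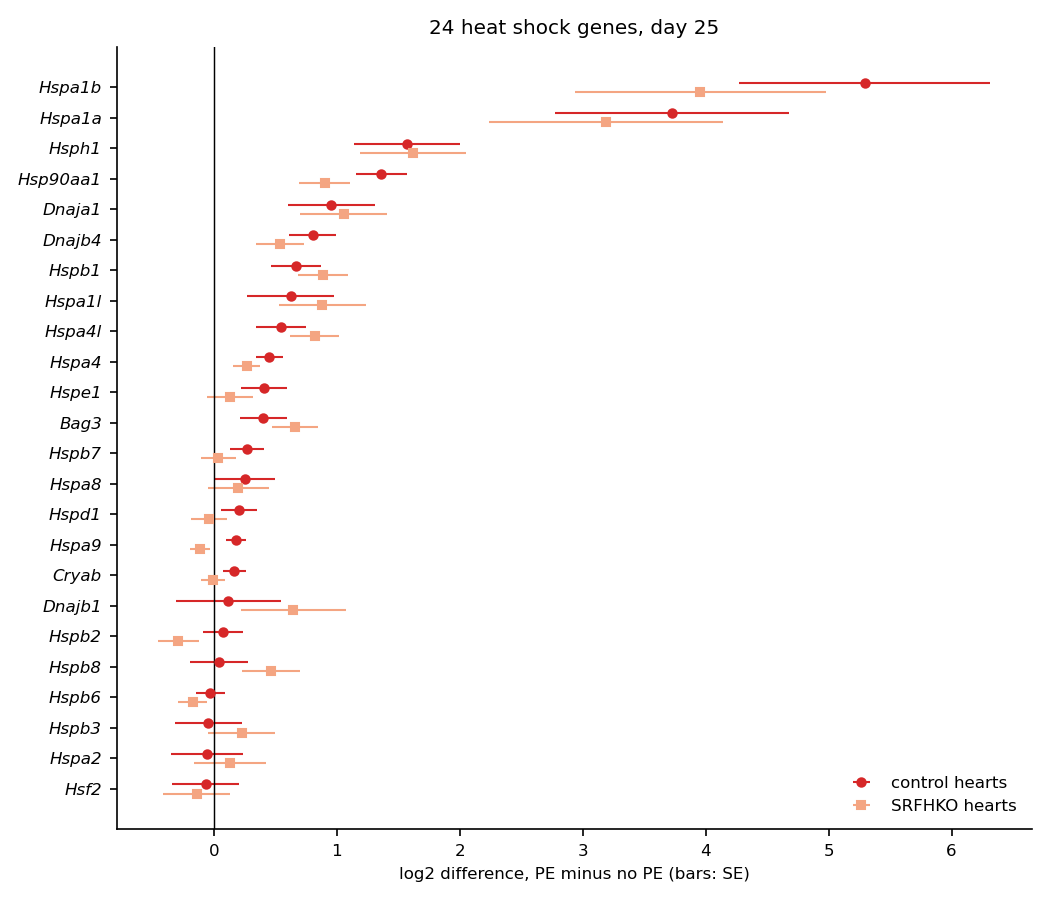
Log2 difference between PE and no PE at day 25 for the 24 measured heat shock genes, with SE (bars), in control (circles) and SRFHKO hearts (squares). Hspa1b and Hspa1a are the highest in both, at 5.29 and 3.73 in control hearts.

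Over all 6 PE hearts, 9 of the 24 heat shock genes had at least 5 PE hearts above all 12 hearts without PE, a pattern found in 87 of the 12616 genes (0.69%). This count was made after the values were seen and rests on no test. The 9 were Hsp90aa1, Hspa1b, Dnajb4, Hspa1a, Hsph1, Hspb1, Hspa4l, Dnaja1 and Bag3. Control PE replicate 2 was the exception for Hsp90aa1, Hsph1 and Hspa4l, and SRFHKO PE replicate 1 for the other 6.

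**Figure D4:**
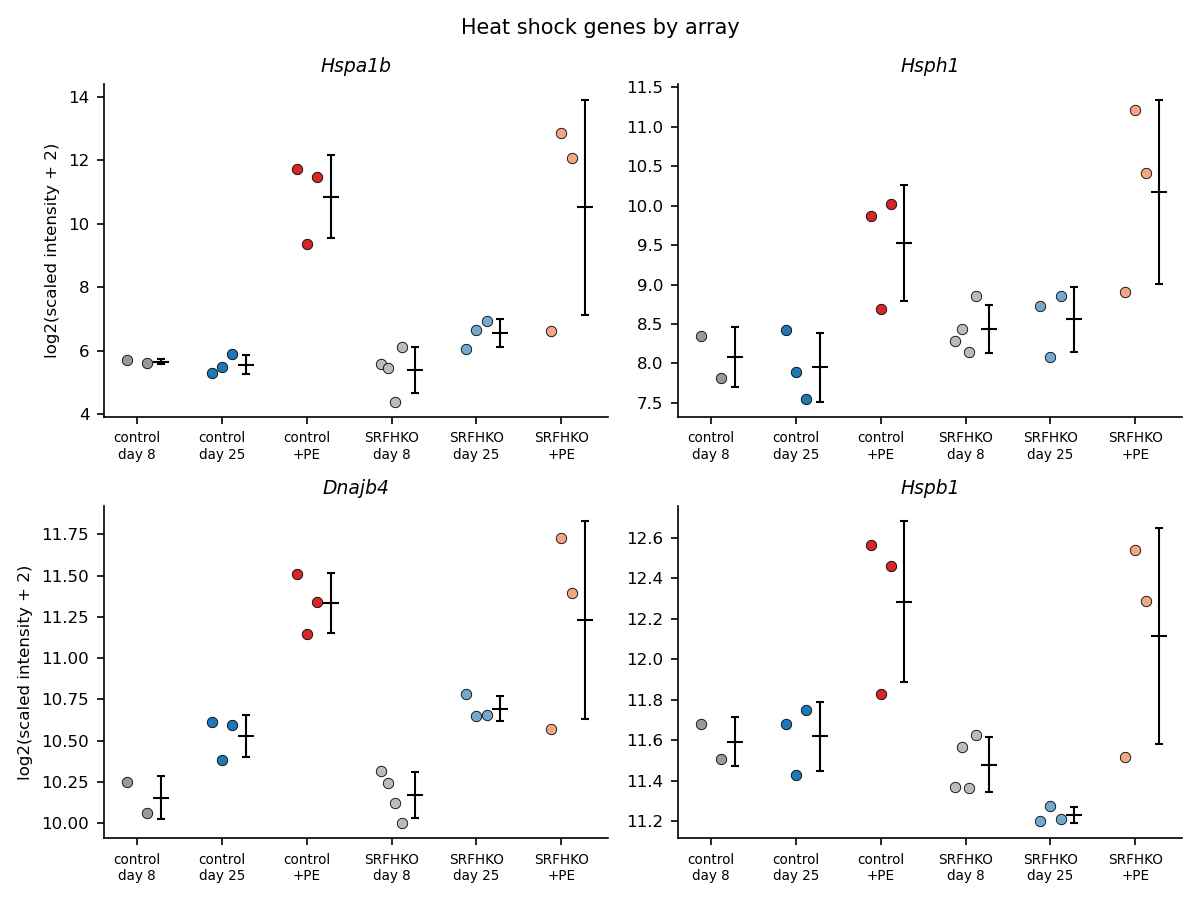
Log2(scaled intensity + 2) of 4 heat shock genes on each array (points) in the 6 groups, with mean and SD (bars). Hspa1b reads 9.37 to 11.75 in the control PE hearts and at most 6.95 in the 12 hearts without PE, while 1 SRFHKO PE heart stays at 6.62.

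Promoters of 4 of these genes are printed because heat shock genes share a known element for heat shock factors. Each is the 250 bases upstream of a RefSeq start (GRCm38.p6), 5′ to 3′. For Dnajb4 the start with a match was chosen, and its other, outermost start holds none. The spans are chr17:34959239-34959488, minus strand, for Hspa1b; chr5:149636337-149636586, minus strand, for Hsph1; chr3:152193846-152194095, minus strand, for Dnajb4; and chr5:135887669-135887918, plus strand, for Hspb1. Capitals mark the motifs GAANNTTC and TTCNNGAA, 2 inverted repeats of an HSE unit that read the same on both strands.
Hspa1b: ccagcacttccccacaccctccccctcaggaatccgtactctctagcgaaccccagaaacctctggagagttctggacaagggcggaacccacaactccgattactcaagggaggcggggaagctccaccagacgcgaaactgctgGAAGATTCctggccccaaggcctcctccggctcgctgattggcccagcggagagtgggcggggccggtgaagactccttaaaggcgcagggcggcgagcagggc
Hsph1: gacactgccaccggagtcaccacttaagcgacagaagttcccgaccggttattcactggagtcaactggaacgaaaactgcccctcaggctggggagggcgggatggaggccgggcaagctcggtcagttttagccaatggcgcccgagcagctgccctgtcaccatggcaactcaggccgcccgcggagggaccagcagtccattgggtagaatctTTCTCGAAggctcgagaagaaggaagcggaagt
Dnajb4: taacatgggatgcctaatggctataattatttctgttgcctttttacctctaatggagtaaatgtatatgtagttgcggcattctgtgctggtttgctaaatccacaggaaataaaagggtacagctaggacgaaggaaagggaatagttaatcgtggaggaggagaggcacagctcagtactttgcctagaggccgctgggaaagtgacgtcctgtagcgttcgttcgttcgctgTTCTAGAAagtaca
Hspb1: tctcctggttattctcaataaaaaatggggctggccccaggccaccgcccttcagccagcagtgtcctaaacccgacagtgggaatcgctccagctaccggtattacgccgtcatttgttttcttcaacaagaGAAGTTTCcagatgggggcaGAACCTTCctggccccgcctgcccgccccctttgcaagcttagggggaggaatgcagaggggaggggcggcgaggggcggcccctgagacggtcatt
In the 300-base windows, which add 50 bases downstream of the start, Hsph1 holds 2 further matches. Of the 24 heat shock genes, 19 had a promoter in the table and 12 of these held a match at any listed start (63.2%), against 14.3% of the 10155 tested genes with a promoter. The windows of Hspa1a and Hspa1b differ at 4 of 300 bases. A match describes letters only, and whether heat shock factors act there was not tested.

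Stretch-responsive and Z-disc genes, many of which anchor or repair the sarcomere, had a median difference of 0.27 over 22 measured genes. None of them passed. The list shares at least Hspb1 with the heat shock genes, so the counts of both lists are not separate. Its lowest member was Fbxo32, a ubiquitin ligase, at -0.30. By limma 10 were higher and 1 lower at an unadjusted p under 0.05, beside 4.43% and 6.1% of all genes. Leaving out 1 replicate at a time, 6 to 9 were higher, the fewest without control replicate 1 or PE replicate 1. Flnc, the filamin of muscle, read 8.17, 8.04 and 7.80 without PE and 9.07, 8.66 and 8.58 with it, a difference of 0.77 ± 0.25 (SE), and all 6 PE hearts were above all 12 others. Xirp1, which marks repair sites of the sarcomere, read 8.56, 8.69 and 8.69 without PE and 9.76, 9.10 and 9.47 with it. Nrap differed by 0.48 and Ankrd23 by 0.47, while Csrp3, a Z-disc LIM protein, differed by -0.04 and desmin (Des) by -0.02. Flnc, Xirp1, Nrap, Csrp3 and Des were chosen after their values were seen, and the list with earlier results of these data known.

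Matricellular and other matrix proteins, which regulate the scaffold between cells, had 35 of 37 genes measured and a median of 0.18. None passed, and 8 were higher and 2 lower at an unadjusted p under 0.05, beside 4.43% and 6.1% of all genes. Postn, periostin of activated fibroblasts, read 9.18, 8.95 and 8.76 without PE and 10.52, 10.20 and 10.43 with it. The difference was 1.42 ± 0.34 (SE) with an adjusted p of 0.191 in control hearts, and in SRFHKO hearts Postn rose by 1.83 with an adjusted p of 0.0246. The groups did not overlap in either. Cilp, a matrix protein of the fibroblast, read 7.14, 7.43 and 6.97 without PE and 9.20, 8.08 and 8.75 with it, a 2.82-fold difference with an adjusted p of 0.191. All 6 PE hearts were above all 12 hearts without PE for Thbs4, Postn, Cilp, Aspn, Lamb1 and Ltbp2, and 5 of 6 were for Mfap5, Thbs3, Vcan, Bgn and Thbs1. That is 11 of 35 genes, beside 0.69% of all genes, again counted after the values were seen. This list too was chosen with earlier results of these data known. Leaving out control replicate 3 lowered the list median to 0.02 and the number higher to 5.

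Collagens gave a mixed picture. Of 22 genes, none passed, and 2 were higher and 2 lower at an unadjusted p under 0.05. Over all genes 4.43% were higher and 6.1% lower at that p. Col1a1 read 8.20, 7.64 and 6.28 without PE and 8.45, 8.00 and 8.46 with it, and Col3a1 read 11.28, 10.81 and 9.28 without PE and 11.11, 11.27 and 11.09 with it, with overlapping groups and control replicate 3 the lowest of all 6 hearts for both. Ccn2, a growth factor of fibrosis, differed by 0.32. P4ha1, a collagen prolyl hydroxylase, differed by 1.12 and the collagen chaperone Serpinh1 by 1.02. Among the 33 TGF-beta, CCN and growth factor genes, 0 passed and 6 were higher and 2 lower at an unadjusted p under 0.05, with Tgfbr1 at 0.40 and Tgfb2 at 0.80.

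Genes of energy metabolism had medians slightly below 0, and none passed. Of 36 measured genes of fatty acid uptake and oxidation, 0 passed, 0 were higher and 13 lower at an unadjusted p under 0.05, and the median was -0.24. Ucp3, a mitochondrial uncoupling protein, read 6.10, 7.54 and 7.43 without PE and 5.69, 5.47 and 5.64 with it, a difference of -1.42 ± 0.34 (SE) with an adjusted p of 0.191. Decr1, a dienoyl-CoA reductase, differed by -0.38 and Acacb, which makes the malonyl-CoA that limits fat entry, by -0.47. Of 74 oxidative phosphorylation genes 0 passed, and 15 were lower and 0 higher on the unadjusted test, with a median of -0.14. Over all genes 6.1% were lower and 4.43% higher on that test. Ndufa10, a complex I subunit, read 12.08, 12.03 and 11.93 without PE and 11.75, 11.57 and 11.64 with it, and Cox7a1, a complex IV subunit, read 12.91, 13.04 and 12.76 without PE and 12.50, 12.52 and 12.46 with it.

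These metabolic values depend on the scaling and on the control group. With arrays scaled to their median, the oxidative phosphorylation median was 0.02 beside 0.12 for all genes, and 0 of its genes were lower. For fatty acid genes the same scaling gave -0.08 and 4 lower genes. Both list medians stayed below that of all genes. Over all 12616 genes the number lower fell as well, from 770 to 236, so the fall in these counts is not particular to the metabolic lists. For 21 of the 74 oxidative phosphorylation genes the untreated controls of day 25 were above all 15 other arrays, beside 1.05% of all genes. Leaving out 1 replicate at a time, 6 to 19 of these genes and 8 to 15 fatty acid genes were lower, the fewest without control replicate 3. For oxidative phosphorylation 7 were lower without PE replicate 2, with a list median of -0.09. The TCA cycle list had 30 genes and a median of -0.11. None passed the threshold and 2 were lower at the unadjusted one, beside 6.1% of all genes.

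The receptors and signals of the PE pathway gave no calls. Of the 11 measured adrenergic receptor and desensitisation genes of 19 listed, 0 passed, and 1 was higher at an unadjusted p under 0.05: Grk5, a kinase that desensitises receptors, at 0.58 with an adjusted p of 0.312. Adra1b, an alpha-1 receptor, read 4.81, 4.98 and 5.60 without PE and 4.88, 5.21 and 4.98 with it, and the groups overlapped. Adra1a was not measured. Of 21 Gq, phospholipase C and protein kinase C genes, 0 passed and 2 were lower at that unadjusted p, protein kinase D1 Prkd1 at -0.46 and protein kinase C alpha Prkca at -0.48, though all probe sets of Prkca averaged gave 0.58. In the calcineurin, NFAT and MEF2 list of 22, 0 passed. On the same unadjusted measure 1 was higher, Rcan1, and 1 lower, Camk2g at -0.38. Over all genes 4.43% were higher and 6.1% lower on that measure.

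Among 23 MAP kinase and dual-specificity phosphatase genes 0 passed. At an unadjusted p under 0.05, the measure behind the other counts here, 2 were higher and 2 lower. Over all genes that measure gave 4.43% higher and 6.1% lower. Dusp5, a phosphatase that shuts off ERK, read 3.34, 2.68 and 2.66 without PE and 4.51, 4.20 and 4.96 with it. All 3 untreated values were below the filter limit of 3.58, so PE was at least 1.97-fold higher. Of 24 immediate early genes 0 passed and 2 were higher and 1 lower, with Nr4a3 at 1.84, Ier3 at 0.74 and Klf6 at -0.43. Of 37 SRF-dependent actin and cytoskeletal genes 0 passed and 4 were higher and 2 lower, Acta1 and the cofilin Cfl2 (0.31) among the higher. Across the 26 sarcomere genes Myh7 passed and the median was -0.08.

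Most other lists stood close to 0. For the 26 chaperones and stress genes of the endoplasmic reticulum the median stood at 0.24, with 3 higher at an unadjusted p under 0.05. Over all genes 4.43% were higher and 6.1% lower at that p. Calcium cycling (-0.05), glycolysis (-0.02), cardiac transcription factors (0.03), ribosomal proteins (-0.01), cell cycle (-0.06) and cell death genes (-0.03) had medians between -0.06 and 0.03, and 0 genes of these lists passed; each held 0 to 3 genes higher and 0 to 4 lower at that unadjusted p. Interferon genes varied most between PE hearts, with list medians of 0.22, -0.77 and 0.80 on the 3 PE arrays, on the scale where the untreated controls average 0.

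**Figure D5:**
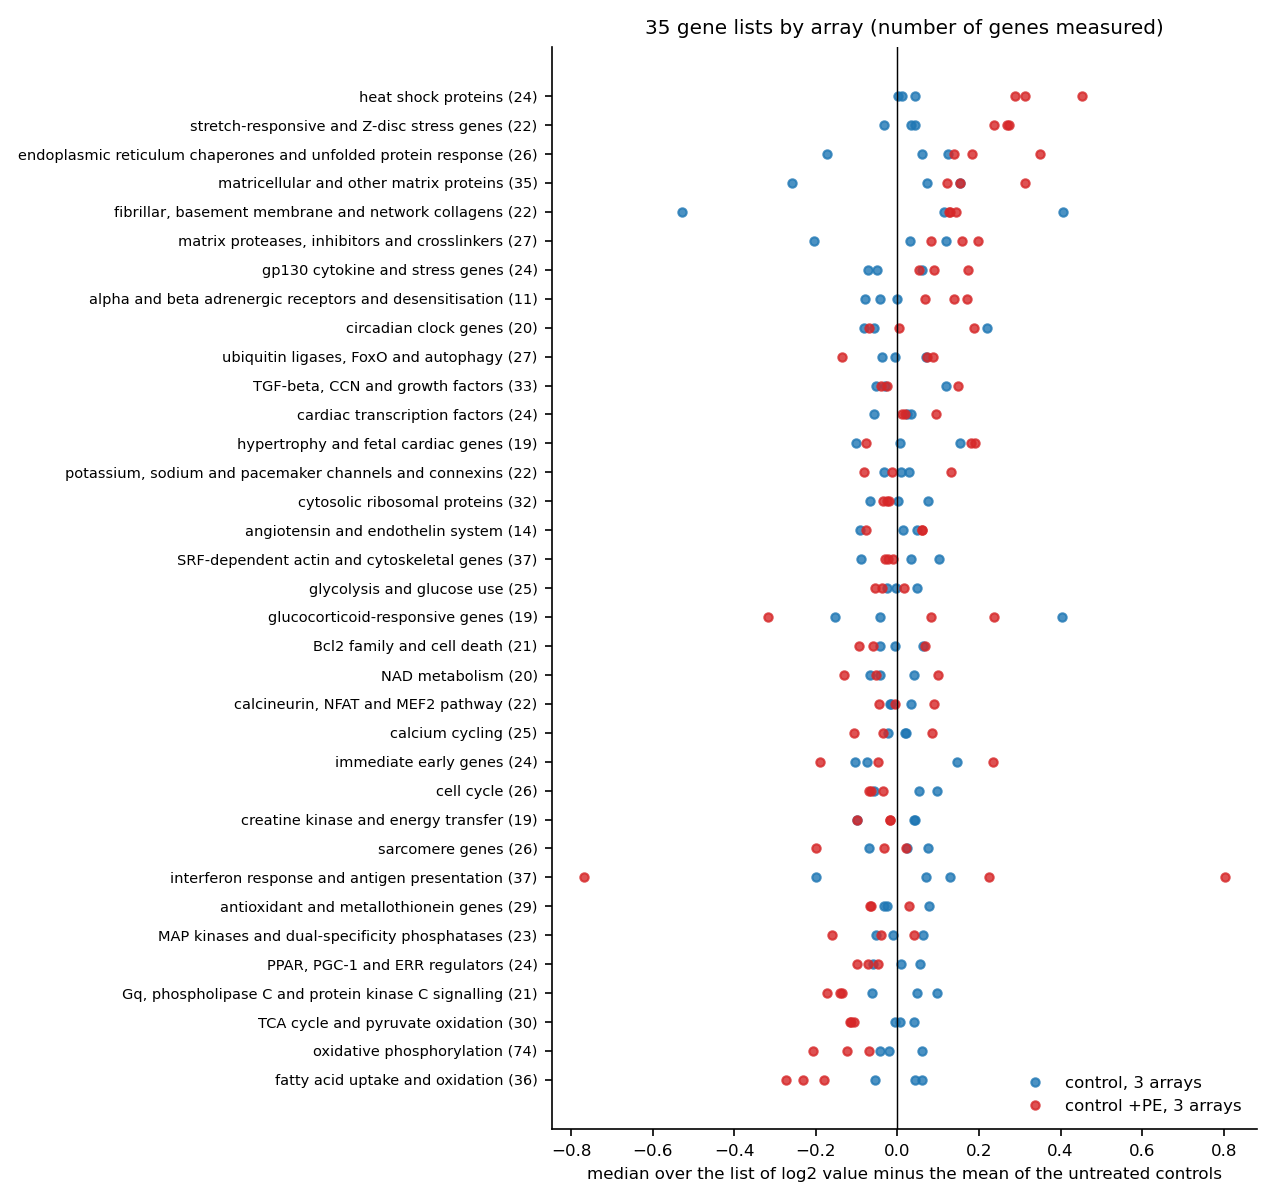
Median over each of 35 gene lists of the log2 value minus the mean of the untreated controls, on each control heart of day 25 without PE (blue) and with PE (red). Heat shock genes read 0.29 to 0.45 with PE and fatty acid genes -0.27 to -0.18, both apart from the untreated hearts; the groups overlap in most lists, and interferon genes spread from -0.77 to 0.80.

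Markers of other cell types were followed because shares of cell types can move with a treatment; in bulk tissue fewer cells of a type and less RNA per cell cannot be told apart. None of the genes on the 17 marker lists passed the limma test. Each held 0 to 2 genes higher and 0 to 5 lower at an unadjusted p under 0.05, beside 4.43% and 6.1% of all genes. Summed scaled signals of 14 lists overlapped between the groups. The 3 that did not were endothelial (13535 to 13746 without PE, 10692 to 12728 with it), skeletal muscle (441 to 518 and 735 to 1012) and Schwann cell and neuron (307 to 341 and 219 to 304). Among single genes the groups did not overlap for 5.91% on the higher and 8.73% on the lower side. The skeletal muscle sum followed 1 gene, Myl1, which differed by 1.60 with an adjusted p of 0.203. Of the 6 measured skeletal muscle markers 4 differed by less than 0, with Mylpf at -0.72 and Tnni2 at -0.61, and the list median was -0.21. Of 19 endothelial genes 5 read lower at the unadjusted threshold, with Aqp1, a water channel, at -0.67, and the median of the 19 was -0.21. Above 0 were 3 of them, Kdr at 0.25, Sox17 at 0.07 and Flt1 at 0.05. On the scale where the untreated controls average 0, the list medians were -0.32, -0.24 and -0.17 on the control PE arrays. The untreated SRFHKO hearts of day 25 read -0.39, -0.25 and -0.31 on that scale. With PE the median difference in SRFHKO hearts was 0.02. With arrays scaled to their median the endothelial median in control hearts was -0.05, beside 0.12 for all genes. In that fit 2 of the 19 were lower, beside 236 of all 12616 genes. Fibroblast markers overlapped, at 14702 to 18747 and 17009 to 18529, beside the matrix values above. The part of cell composition in any of these results was not tested.

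The second PE comparison, in SRFHKO hearts, gave 37 genes past the threshold (0.293%), 23 higher (0.182%) and 14 lower (0.111%). At an unadjusted p under 0.05 there were 1380 (10.9%), 713 of them higher (5.65%) and 667 lower (5.29%), and the groups did not overlap for 8.62% on the higher and 8.35% on the lower side. Leaving out 1 heart moved the adjusted count: 83 genes passed without SRFHKO PE replicate 1, 1 passed without SRFHKO PE replicate 2, and 7, 5 and 2 without SRFHKO replicates 1, 2 and 3. Of the 559 genes higher with PE in control hearts at an unadjusted p under 0.05, 381 (68.2%) were also above 0 in SRFHKO hearts, beside 49.1% of all genes. For the 770 lower genes, 502 (65.2%) were below 0 there, beside 50.9%. The comparisons share no array, although the fit shares 1 estimate of the spread. The heat shock median in SRFHKO hearts was 0.36, that of the stretch-responsive genes 0.12 and that of the fatty acid genes -0.30.

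The test of the difference between the responses passed for 3 genes (0.0238%), 1 with the response higher in control hearts (0.00793%) and 2 with it lower (0.0159%). At an unadjusted p under 0.05 there were 947 (7.51%), 402 higher (3.19%) and 545 lower (4.32%). Myh7 differed by 3.34 with an adjusted p of 0.0278, with -0.03 in SRFHKO hearts, whose 6 values at day 25 ran from 12.30 to 12.66. Its untreated controls of day 25, at 9.14 to 9.82, were below all 15 other arrays, so this difference carries the limit given above. Sprr1a, a small proline-rich stress protein, read 4.82, 4.75 and 5.57 without PE and 5.16, 4.94 and 5.48 with it in control hearts. In SRFHKO hearts it read 4.49, 4.50 and 5.12 without PE and 8.74, 8.90 and 7.27 with it, and the difference between responses was -3.45 with an adjusted p of 0.0271. Prkab2, a subunit of AMP-activated protein kinase, differed by -1.07 with an adjusted p of 0.0278, from -0.34 in control and 0.73 in SRFHKO hearts. Leaving out 1 heart gave from 0 to 7 such genes, with 0 without control replicate 2, any of the 3 control PE replicates, SRFHKO replicate 2 or SRFHKO PE replicate 2, and 1 without SRFHKO replicate 1 or 3 or SRFHKO PE replicate 3.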

How the data were processed

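RNA was extracted with Trizol from ventricles, per the labels' protocols. The authors deposited 1 linear signal intensity per probe set and array, made with GCOS per the submitters' processing notes; no source used here gives its settings. Of 45101 probe sets 64 were controls, 34945 carried 1 gene symbol, 932 several and 9160 none in the platform annotation. Each array was scaled to a common 2% trimmed mean of 90.6, and log2 was taken after a pseudocount of 2. Probe sets with a mean under the 40th percentile (log2 3.58) were left out, and the brightest of each gene was used, giving 12616 genes; probe sets whose name ends in _x_at, which can bind related transcripts, were used only where a gene had no other, even if brighter. limma 3.58.1 in R 4.3.3 fitted means of the 6 groups over 18 arrays, with an intensity trend and Benjamini-Hochberg adjustment at 0.05. It was tested on simulated data. Where a group lay wholly below the filter limit, the fold was computed against that limit as a bound.

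Named genes were the calls, the 10 smallest p each way, a set of core genes and, from each of 35 pathway and 17 cell type lists, the calls or up to 3 genes of smallest p. Further heat shock, stretch, matrix and tissue marker genes were chosen after their values were seen. Members and lists were chosen with earlier results of these data known. Promoters came from RefSeq (GRCm38.p6). Deviations of hearts with the same replicate number correlated at 0.033, 0.065 and 0.090, each under the 0.1 required, so the numbers were not taken as pairs. Array brightness, the Gapdh ratio and the 18S rRNA signal nevertheless each ranked alike by number in the control groups with and without PE. Alternatives changed the scaling, pseudocount, filter, probe set rule, variance trend, brightness covariate, arrays fitted, replicate block and each replicate.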

Additional observations from a re-analysis of the deposited data

Results flagged for a closer look

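In 3 genes the response to PE differed between control and SRFHKO hearts by a test of the difference itself, given as control minus SRFHKO on the log2 scale. The value was 3.34 for Myh7, -1.07 for Prkab2 and -3.45 for Sprr1a. For Myh7 the untreated controls of day 25 were below all 15 other arrays. A differing response and a low reading in those hearts cannot be told apart for it. No gene passed this test when any control PE replicate was left out.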

How the results depend on the processing

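For PE in control hearts, 4 genes passed; the count was 2 with quantile normalization, 9 with scaling to the array median, 10 with only the compared groups fitted, 1 with all probe sets averaged and 1 with no intensity trend, and 1 to 7 with 1 heart left out. For SRFHKO hearts, 37 passed; the count was 22 with median scaling, 2 with the compared groups only, 24 with array brightness as a covariate, 24 with probe sets averaged, 1 with no trend and 1 to 83 with 1 heart left out. For the difference between responses, 3 passed; it was 1 with probe sets averaged, 0 with no trend (limma) and 0 to 7 with 1 heart left out. With the replicate number as a block the counts were 3, 44 and 2. The labels do not say what a shared number means. Each of the 6 control hearts correlated best with its own number, which is a hint from the data and not the design. Over named genes and their alternatives, 2796 values kept direction and side of the threshold, 27 lost and 17 gained the threshold, 25 moved, and no call reversed. Of list medians, 786 stayed within the spread of the hearts and 98 moved. The causes were not tested. Precision is limited by the 3 hearts per group, and genes near the filter limit carry dim signal.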
